A study of Mus musculus with 57 samples.

Results

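The comparison is between FOXA2 and Sox1 single-positive cells sorted on day 6 (D6) of retinoic acid (RA) differentiation of mouse embryonic stem cells (ESCs). It asks how the transcriptomes of the endoderm marker and the neuroectoderm marker populations differ. Its members are the 6 libraries labelled Day6_Sox1-FoxA2+ (replicates 1 to 3) and Day6_Sox1+FoxA2- (replicates 1 to 3), chosen by label alone out of 57 libraries in the series, and all 24203 genes tested in them. The populations were Sox1-FoxA2+ cells, in which mCherry but not EGFP was detected, and Sox1+FoxA2- cells, in which EGFP but not mCherry was detected. In the study, EGFP followed SOX1 protein well at D4 but poorly at D6. The authors propose that EGFP may be decoupled from SOX1 protein by D6, and that signals near background made the measure noisier. The Sox1 label of the D6 cells therefore stands for EGFP and may not reflect SOX1 protein. All groups came from the same double reporter line, Sox1-EGFP/FoxA2mCherry, in which EGFP replaces 1 Sox1 allele and mCherry is attached to FOXA2 at its gene. The line is a single engineered clone, so that no group represents other ESC lines, and both groups carry both reporters. Cells left medium with serum and LIF and were kept in N2B27 medium with 1 uM RA until they were sorted. The other populations used for side-by-side values were the double-negative and double-positive cells of D6, undifferentiated cells of D0, the same single-positive populations sorted at D4, and D6 progeny, meaning single-positive cells sorted at D2 and replated in RA medium with a serum base. Each group has 3 libraries, given as biological replicates in the study. The p-values weigh the difference between groups against the spread between libraries. In the main fits that spread was estimated over all populations of the same day and arm. At D6 the double-negative and double-positive libraries therefore also enter it.

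FOXA2 is a forkhead transcription factor of endoderm, node and ventral neural cells, and SOX1 is an early transcription factor of neuroectoderm. In the mouse embryo, primitive endoderm expresses GATA6, GATA4, SOX17 and SOX7. It gives rise to parietal endoderm, which secretes the thick laminin and collagen IV basement membrane called Reichert's membrane, and to visceral endoderm, which takes up maternal proteins through the cubilin and megalin receptors and secretes serum proteins.

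Totals ran from 26156124 to 36694379 counts in the Sox1-FoxA2+ libraries and from 22857168 to 35982572 in the Sox1+FoxA2- libraries. Genes with at least 1 count numbered 16459 to 20171 in Sox1-FoxA2+ and 21114 to 27832 in Sox1+FoxA2- libraries, without overlap (exact permutation test, two-sided, p = 0.1, the smallest that 3 against 3 libraries allow). This difference in the number of detected genes moves with every result below, and its part in them was not tested. Mitochondrial genes held 6.95 to 11.7% and 6.01 to 11.3% of counts. Of the genes with a count, 82.5 to 87.5% had an even count in Sox1-FoxA2+ and 80.1 to 86.5% in Sox1+FoxA2- libraries. Fragments may have been counted more than once, which was not tested. Levels are given as counts divided by DESeq2 size factors (normalized counts), which are not corrected for gene length, so that genes are not compared with each other.

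Among the genes behind the reporters, Foxa2 (ENSMUSG00000037025.11, chr2:148042877-148046969, GRCm38) had 2697, 1478 and 2585 normalized counts in Sox1-FoxA2+ replicates 1 to 3 and 131, 124 and 20.3 in Sox1+FoxA2- replicates 1 to 3. The groups did not overlap and follow the labels, but the difference was not called (log2 fold change 4.76, SE 1.75, adjusted p = 0.319). All such p-values are from the quasi-likelihood F-test of edgeR, adjusted by Benjamini and Hochberg's procedure over all genes tested. Sox1 could not be checked: the gene lies wholly inside the longer gene Sox1ot, and in this table all 1351 protein-coding genes that lie wholly inside another gene have 0 counts. For the same reason Sox2, Tubb3, Pou3f3, Neurod1 and several Hox genes were not measured.

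Sox1-FoxA2+ cells differed from Sox1+FoxA2- cells by transcription factors, basement membrane and secretory genes among the genes called higher, and by Zscan4, Usp17l and some neural genes among those called lower. An adjusted p under 0.05 was called, and 319 of 24203 genes passed (1.32% of genes tested). Of these, 242 were higher in Sox1-FoxA2+ cells (1% of genes tested) and 77 lower (0.318%), while 3255 passed an unadjusted p of 0.05. The split depends on the test: 75.9% of calls were higher here, against 29.6% of 1641 calls with DESeq2's Wald test, 54.9% of 605 without a filter on low counts and 66.3% of 517 with the replicate number as a block. The 3 libraries of one group lay outside the 3 of the other in 317 of the 319 called genes, against 23.2% of all genes tested. The called genes were picked by p in these same libraries, so that such separation follows largely from the choice. The shares of 1.32% called and 23.2% without overlap are the background for the list counts below. Among called genes, 189 of the 242 higher genes had a log2 fold change of at least 2 and 37 of at least 4, and 64 of the 77 lower genes were at -2 or below and 22 at -4 or below. The median over all genes tested was -0.30. It was 0.20 among the 6252 genes with a mean of at least 1000 normalized counts, of which 238 were called higher and 52 lower (4.64% together), and -0.76 among the other genes. Calls in this design depend on single libraries: the number called was 212, 179 and 180 without Sox1+FoxA2- replicate 1, 2 or 3, and 226, 243 and 501 without Sox1-FoxA2+ replicate 1, 2 or 3. The calls of 121 of the 319 genes (94 higher, 27 lower) held in all 6 of these fits. Replicate numbers paired the libraries of these groups, and a fit with the replicate as a block called 517 genes, among them 298 of the 319. In bulk samples, fewer cells of a type and less RNA per cell cannot be told apart.

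**Figure D1:**
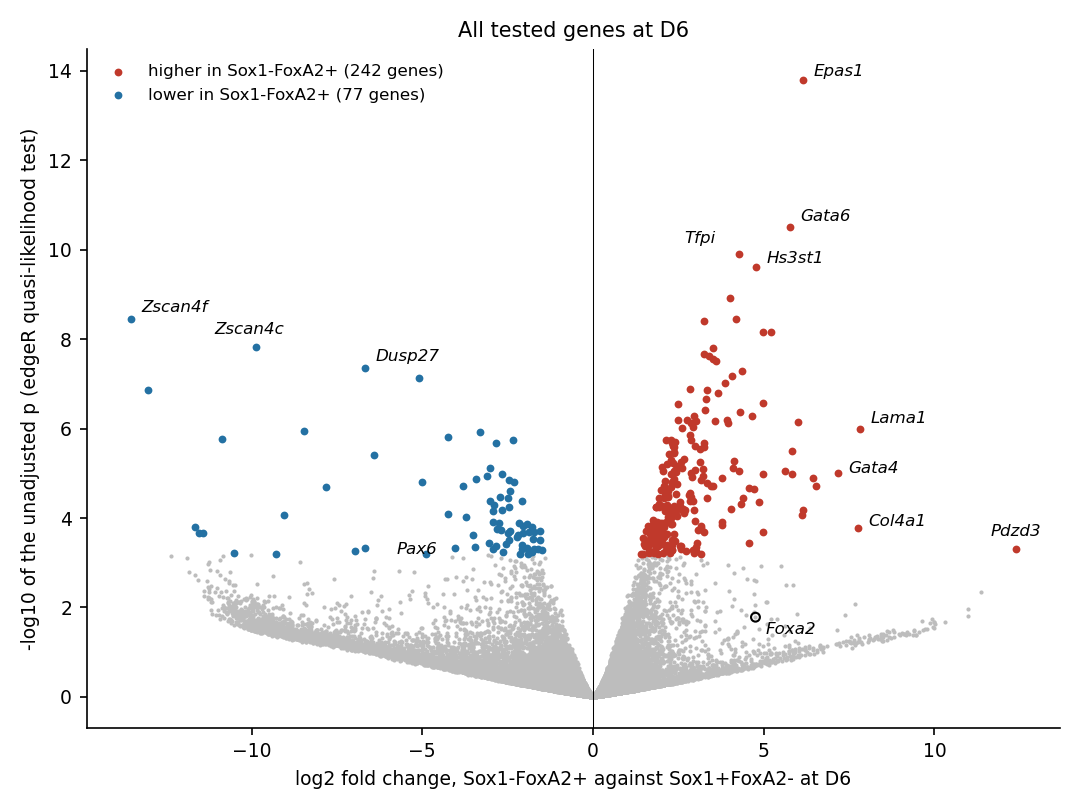
Log2 fold change of each of the 24203 tested genes (x axis, Sox1-FoxA2+ against Sox1+FoxA2- at D6) against -log10 of its unadjusted p from edgeR's quasi-likelihood test (y axis). Red points are the 242 genes called higher, blue points the 77 called lower, grey points are not called, and Foxa2 is ringed in the grey area at 4.76; positions of genes at 0 in a whole group are fitted values and no bounds.

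Of 12 listed transcription factors of primitive endoderm and its derivatives, 3 were called higher in Sox1-FoxA2+ cells, 12 had a positive log2 fold change and 8 did not overlap between libraries. Foxa2 counts among the 12 and among the 8, and its direction was set by the sort on its reporter. The list median was 4.05, against -0.30 over all genes tested, of which 1.32% were called and 23.2% did not overlap. At an unadjusted p of 0.05 from edgeR, 7 of the 12 passed, against 3255 of all 24203 genes tested, and DESeq2 called 7. Gata6, a GATA factor needed for primitive endoderm, had 14837, 11764 and 9394 normalized counts in Sox1-FoxA2+ and 109, 328 and 322 in Sox1+FoxA2- libraries (log2 fold change 5.77, SE 0.59, adjusted p = 3.84e-07), and it was called in each of the 6 fits without 1 library. Gata4, its partner in the same lineage, had 24769.5, 19064 and 18266 against 313, 26.9 and 152 (log2 fold change 7.18, SE 0.98, adjusted p = 0.00265). Here the lowest Sox1+FoxA2- library, replicate 2, lay far under the others of its group, and without replicate 3 the adjusted p was 0.0803. Sox17 (2443, 3515 and 629.7 against 110.5, 245 and 22.2; log2 fold change 4.34, adjusted p = 0.275) and Sox7 (9544, 8287 and 4332 against 122, 301 and 96.2; 5.62, adjusted p = 0.369) did not overlap between the groups and were not called. Foxa1, Foxa3, Hnf4a and Hhex overlapped between the groups, and Hnf4a, a factor of visceral endoderm and liver, had 314, 1075 and 48.7 against 35, 470.4 and 179.

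Outside the lists, the gene with the smallest p was Epas1, which encodes the hypoxia-inducible factor HIF-2 alpha. Epas1 (ENSMUSG00000024140.10, chr17:86753700-86833410) had 58494, 70970 and 50309 normalized counts in Sox1-FoxA2+ and 1108, 806 and 977 in Sox1+FoxA2- libraries (log2 fold change 6.15, SE 0.48, adjusted p = 3.95e-10), and every Sox1-FoxA2+ library was far above every Sox1+FoxA2- library. The coagulation genes F3, which encodes tissue factor, and Tfpi, its inhibitor, were both higher. F3 had 11258, 4977 and 10238 against 284, 86 and 448 (log2 fold change 5.21, SE 0.64, adjusted p = 1.68e-05). Tfpi had 19819.5, 13247 and 17595 against 1114, 1005 and 827 (log2 fold change 4.27, SE 0.47, adjusted p = 9.96e-07). Hs3st1, a heparan sulfate 3-O-sulfotransferase, had 12661, 6392 and 12033 against 409, 347 and 521 (log2 fold change 4.78, SE 0.54, adjusted p = 1.5e-06). None of these 4 genes overlapped between groups, and each was called without any single library and with the block. Ankrd33b and Fam129b, also among the 10 higher genes of smallest p, had log2 fold changes of 4.20 and 3.52.

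Lama1, Lamb1 and Lamc1, the chains of laminin-111, Col4a1 and Col4a2, the chains of the common collagen IV, and Sparc, a collagen-binding matrix protein, together took 6.49, 3.23 and 3.09% of all counts in Sox1-FoxA2+ replicates 1 to 3, and 0.0804, 0.0385 and 0.073% in the Sox1+FoxA2- replicates. Sox1-FoxA2+ replicate 1 was the highest library for each of these 6 genes. Of 14 listed basement membrane genes, 8 were called higher and 1 lower, with a median log2 fold change of 3.62. The share called over all genes tested was 1.32%. Lama1 (ENSMUSG00000032796.8, chr17:67697259-67822647) had 605983, 288349 and 284521 normalized counts in Sox1-FoxA2+ and 2286, 1762 and 2031 in Sox1+FoxA2- libraries (log2 fold change 7.82, SE 0.86, adjusted p = 5.8e-04). Sparc had 288429, 186205 and 192404 against 5649.7, 3086 and 3066 (log2 fold change 6.01, SE 0.71, adjusted p = 4.63e-04). The call of both genes held without any single library and with the block.

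Lamb1 had 297704, 143763 and 167496 against 4812, 2204 and 5419.9 (log2 fold change 5.83, SE 0.75, adjusted p = 0.00126). Lamc1 had 453022, 209512 and 202995 against 8078, 3542 and 9092 (log2 fold change 5.62, SE 0.77, adjusted p = 0.00254). Without Sox1+FoxA2- replicate 3 the adjusted p was 0.0539 for Lamb1 and 0.0749 for Lamc1. Col4a1 had 593566, 209750 and 240518 against 2577, 535 and 2545 (log2 fold change 7.77, SE 1.24, adjusted p = 0.0192), with Sox1+FoxA2- replicate 2 well below the other replicates of its group. Its call was lost without Sox1+FoxA2- replicate 1, 2 or 3 (adjusted p = 0.107, 0.0893 and 0.129) and without Sox1-FoxA2+ replicate 1 (0.0537). Col4a2 had 184853, 75692 and 68144 against 1358, 699 and 2129 (log2 fold change 6.54, SE 0.91, adjusted p = 0.00408) and lost the call without Sox1+FoxA2- replicate 1 (0.0625) or 3 (0.0617). Of the exon bases, 23.7% of Col4a1 and 16.6% of Col4a2 lie inside other genes, so that both may be undercounted. Hspg2, which encodes perlecan, was higher by 3.02 (adjusted p = 0.0382; 0.0794 with the block, and 0.0593 to 0.429 without Sox1+FoxA2- replicate 1, 2 or 3 or Sox1-FoxA2+ replicate 2). The nidogen genes Nid1 and Nid2 did not pass (log2 fold change 4.22 and 2.02, adjusted p = 0.371 and 0.337) although their libraries did not overlap. Laminin beta 2, Lamb2, had 5505, 2672 and 3039.6 against 696, 351 and 581 (adjusted p = 0.00246; 0.0829 without Sox1-FoxA2+ replicate 1). Lama5, the other laminin alpha chain on the list, was at -0.94 (adjusted p = 0.847). Col18a1, which encodes the precursor of endostatin, moved the other way, with 3635, 2927 and 1377 in Sox1-FoxA2+ and 22051, 6416 and 10941 in Sox1+FoxA2- libraries (log2 fold change -2.08, SE 0.51, adjusted p = 0.041). That call was lost without Sox1+FoxA2- replicate 1 (0.223) or 3 (0.0837) and without Sox1-FoxA2+ replicate 2 (0.119) or 3 (0.08), and held with the block (2.29e-04).

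**Figure D2:**
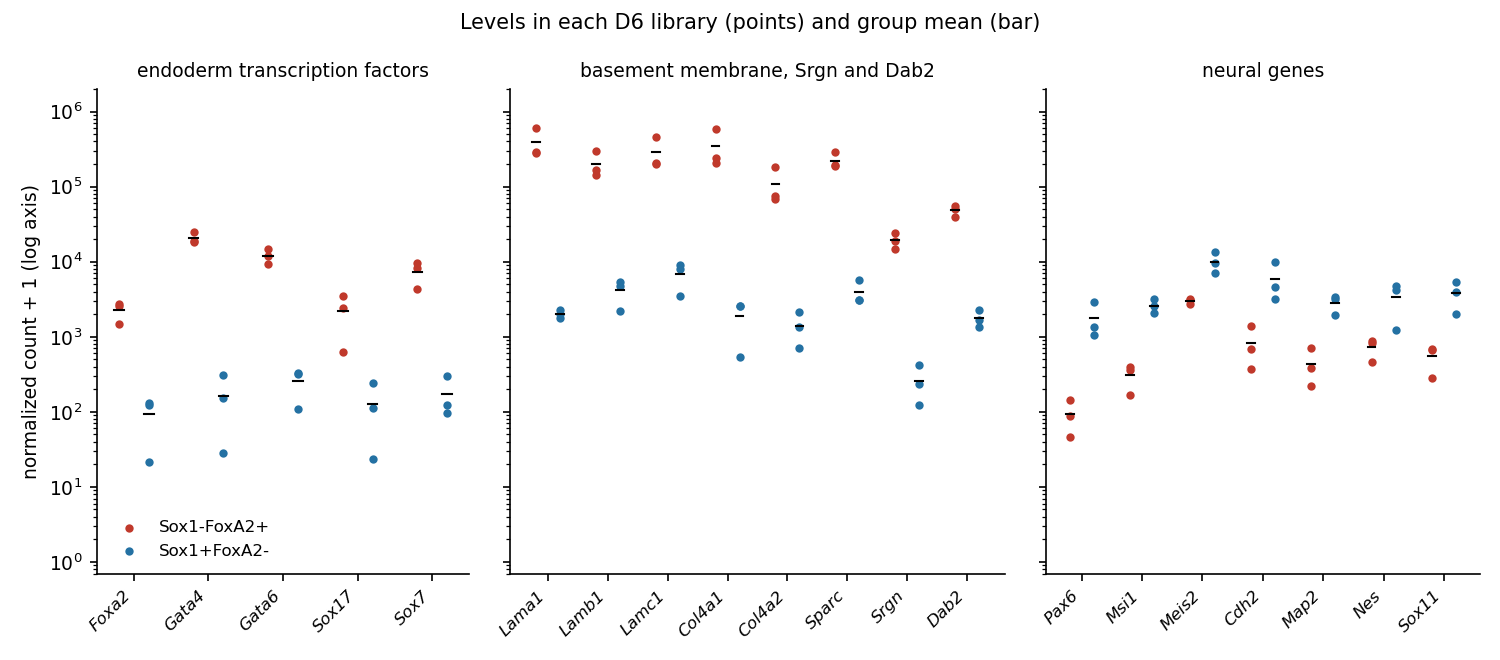
Normalized count plus 1 (log axis) in each D6 library for 5 endoderm transcription factors, 8 matrix and endocytic genes and 7 neural genes. Points are libraries (red Sox1-FoxA2+, blue Sox1+FoxA2-) and black bars are group means of 3 libraries; Lama1 lies between 284521 and 605983 in the red and between 1762 and 2286 in the blue group.

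Of 15 listed genes that modify and fold collagen, 7 were called higher and 0 lower, 12 did not overlap, and the median was 3.25. Over all genes tested, 1.32% were called and 23.2% did not overlap. P4ha1, the catalytic subunit of collagen prolyl 4-hydroxylase, had 33091, 18643 and 21212 normalized counts in Sox1-FoxA2+ and 1756, 1169 and 2295 in Sox1+FoxA2- libraries (log2 fold change 4.01, SE 0.48, adjusted p = 5.8e-06). P4hb, the other subunit and a protein disulfide isomerase, had 83522, 49496 and 51121 against 9430, 6579.5 and 6216 (log2 fold change 3.25, SE 0.41, adjusted p = 1.21e-05). Plod2, a lysyl hydroxylase, had 48323, 21040 and 24173 against 2574, 1833 and 1991 (log2 fold change 4.08, SE 0.53, adjusted p = 8.34e-05). Serpinh1, the collagen chaperone HSP47, had 75882, 39958 and 40457 against 5719.6, 5937 and 3039 (log2 fold change 3.60, SE 0.48, adjusted p = 4.6e-05). These 4 genes were separated in all libraries and kept the call without any single library. P4ha2, P3h1 and Ppib were called with log2 fold changes of 2.70, 3.33 and 1.98. P4ha2 lost the call without Sox1+FoxA2- replicate 2 (adjusted p = 0.0694), P3h1 without Sox1+FoxA2- replicate 3 (0.0575) or Sox1-FoxA2+ replicate 1 (0.061), and Ppib without any of 4 libraries (Sox1+FoxA2- replicates 1 to 3 and Sox1-FoxA2+ replicate 1, adjusted p from 0.0512 to 0.117). Loxl2, a lysyl oxidase that crosslinks collagen IV, was at 5.86 and did not pass (adjusted p = 0.139), and 41.7% of its exon bases lie inside other genes.

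Markers of parietal endoderm had positive log2 fold changes in 14 of 14 cases, 13 without overlap, with 4 called and a median of 3.78. Beside these counts, 1.32% of all genes tested were called and 23.2% did not overlap. Srgn, the core protein of the proteoglycan serglycin, had 24029.5, 18639 and 14929 against 237, 124 and 414 (log2 fold change 6.44, SE 0.92, adjusted p = 0.00318; 0.0501 without Sox1+FoxA2- replicate 1). Pdgfra, the receptor for platelet-derived growth factor A of primitive endoderm, had 23510.4, 15059.6 and 7373 against 253, 421 and 78.6 (log2 fold change 6.14, SE 1.01, adjusted p = 0.00986), and lost the call without Sox1+FoxA2- replicate 1 or 3 (adjusted p = 0.0529 for the latter) and with the block (0.0874). Cited2, a transcriptional co-regulator, had 8088, 8654 and 8899 against 1519, 2499.6 and 601 (log2 fold change 2.61, SE 0.55, adjusted p = 0.00983) and kept its call without any single library. Vim, the intermediate filament vimentin, had 19753, 29586 and 17434 against 9241, 9492 and 5001 (log2 fold change 1.67, SE 0.40, adjusted p = 0.0209; lost without Sox1+FoxA2- replicate 1 or 3 or Sox1-FoxA2+ replicate 2, 0.0501 to 0.17). Pth1r, the parathyroid hormone receptor of parietal endoderm, was at 5.50 with an adjusted p of 0.0751. Thbd, thrombomodulin, was at 525, 0 and 363 in Sox1-FoxA2+ libraries and at 0 in every Sox1+FoxA2- library.

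Of 16 visceral endoderm markers, 12 could be tested, 1 was called, and the median was 1.81. Afp and Ttr, serum proteins that define visceral endoderm, had 0 counts in all 3 Sox1-FoxA2+ libraries, where 6 of the 16 markers were at 0, among them Trf and S100g, which lie mostly or wholly inside other genes. In all Sox1+FoxA2- libraries, 4 of the 16 were at 0. Afp had 53.4, 18.8 and 1.85 and Ttr 51.5, 0 and 24 in Sox1+FoxA2- libraries, and 63.8% of Afp exon bases lie inside other genes. Rhox5, an X-linked homeobox gene of extraembryonic cells, was the called member (2725, 1679.8 and 4799.9 against 355, 562 and 446; log2 fold change 2.86, SE 0.60, adjusted p = 0.00631; 0.0513 without Sox1+FoxA2- replicate 1). Apoe was at 4245, 3949 and 4004 against 1529.8, 374 and 2210.1, separated but not called (log2 fold change 1.77, SE 0.52, adjusted p = 0.0922; 0.0167 with the block). Anterior visceral endoderm genes such as Cer1, Lefty1 and Otx2 gave 0 calls in 7 tested by edgeR (0 at an unadjusted p of 0.05 and 0 by DESeq2) and a median of 0.16, which was -0.05 with DESeq2 size factors and -0.92 with the block. Amn, the partner of cubilin, was at 75.3, 98.2 and 0 against 230.1, 34.9 and 192, with overlap.

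The endocytic apparatus, shared by visceral and parietal endoderm and other absorptive epithelia, was among the lists with the largest medians, at 4.01. Of its 10 genes, 6 were called higher, 8 were positive, 2 were negative and 7 did not overlap. Over all genes tested, 1.32% were called and 23.2% did not overlap. Amn, given above, is also a member of this list. Dab2, a clathrin adaptor, had 50715, 54889 and 39472 against 1668, 2258 and 1331 (log2 fold change 4.97, SE 0.62, adjusted p = 2.47e-04). Lrpap1, the chaperone of the LDL receptor family, had 41609, 27477 and 24523 against 801, 1084 and 1546 (log2 fold change 4.98, SE 0.56, adjusted p = 1.68e-05). Both were separated in all libraries and called in every fit without 1 library. Cubn, which encodes cubilin, had 60434, 31734 and 27449.8 against 684, 1183 and 551 (log2 fold change 5.83, SE 0.82, adjusted p = 0.00271; 0.0676 without Sox1+FoxA2- replicate 3; 23.8% of its exon bases inside other genes). Lrp2, which encodes megalin, had 93901, 47206 and 23676 against 9745, 9411 and 6007 (log2 fold change 2.95, SE 0.57, adjusted p = 0.00981), and lost the call without Sox1+FoxA2- replicate 2 (0.0757) or 3 (0.144) and with the block (0.187). Fabp3, a fatty acid binding protein outside the list, had 38826, 27356 and 43017 against 699.5, 285 and 780.5 (log2 fold change 6.12, SE 0.99, adjusted p = 0.0118); its call was lost in 5 of 6 fits without 1 library (all but Sox1-FoxA2+ replicate 3, 0.0518 to 0.137) and with the block (0.0539). Ctsc and Ctsl, lysosomal cathepsins, were higher by 4.32 and 4.57. Ctsl lost its call without Sox1+FoxA2- replicate 3 (0.0791) and with the block (0.096), and Ctsc without Sox1+FoxA2- replicate 2 (0.0516) or 3 (0.0562) or Sox1-FoxA2+ replicate 1 (0.23).

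The lists of the endoplasmic reticulum, the export route and the lysosome were composed after values of the called genes had been seen, so that their counts describe the data and test nothing. Of 33 genes of protein folding and stress response in the endoplasmic reticulum, 33 were positive and 17 called higher, with a median of 1.92. Of 43 genes of translocation, glycosylation and vesicle transport, 43 were positive and 14 called higher, with a median of 1.62. Of 36 lysosomal genes, 36 were positive and 13 called higher, with a median of 1.81. Among all 6252 abundant genes, 62.4% were positive, 4.64% were called and the median was 0.20.

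Hspa5, the main chaperone of the endoplasmic reticulum (BiP), had 42516, 30849 and 15791 normalized counts in Sox1-FoxA2+ and 10028, 5547 and 5363 in Sox1+FoxA2- libraries (log2 fold change 2.32, SE 0.41, adjusted p = 9.31e-04). Calr, which encodes the calcium-binding chaperone calreticulin, had 43152, 28225 and 28447 against 8728, 3948 and 7752 (log2 fold change 2.49, SE 0.39, adjusted p = 2.49e-04). Pdia3, a disulfide isomerase that acts with it, had 42979.7, 28572 and 20009.5 against 10378, 5873 and 6595 (log2 fold change 2.22, SE 0.40, adjusted p = 0.00139). In all 3 genes the lowest Sox1-FoxA2+ library lay above the highest Sox1+FoxA2- library. Xbp1, a transcription factor of secretory capacity, had 6875, 5143 and 4102 against 842, 1021 and 596 (log2 fold change 2.90, SE 0.57, adjusted p = 0.00301). Creb3l2, another such factor, had 13423, 8950.4 and 6669 against 1237, 586 and 1788 (log2 fold change 3.24, SE 0.55, adjusted p = 0.00107). The stress response factor Atf4 was at 0.94 and did not pass (adjusted p = 0.371), and the stress sensors Ern1 and Eif2ak3 were at 0.37 (0.889) and 1.72 (0.271). Of the 17 called genes, 7 kept the call without any single library and 15 with the block.

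Along the export route, Kdelr3, a receptor that returns chaperones to the endoplasmic reticulum, had 4672, 3034 and 1419.6 against 272, 8.06 and 90.6 (log2 fold change 4.86, SE 0.97, adjusted p = 0.00743; 0.0961 without Sox1+FoxA2- replicate 3). Tmed9, a cargo receptor of early secretory vesicles, had 7498, 5006 and 5119 against 1510.5, 999.8 and 1198 (log2 fold change 2.44, SE 0.46, adjusted p = 0.00239). Tmed9 was the member of this list whose call held without any single library. Mia3, which encodes the collagen export factor TANGO1, was higher by 1.86 (adjusted p = 0.0192), but not without Sox1+FoxA2- replicate 2 (0.169) or 3 (0.119) or Sox1-FoxA2+ replicate 1 (0.21). In the lysosome, Lgmn, the protease legumain, had 16317, 8835 and 7127 against 526, 382 and 1032 (log2 fold change 4.30, SE 0.62, adjusted p = 3.43e-04). Gaa, the acid alpha-glucosidase, had 8738, 4409.7 and 4210.3 against 889, 398 and 736 (log2 fold change 3.32, SE 0.51, adjusted p = 2.04e-04). The membrane protein gene Cd63 had 8217, 6209 and 11014 against 851, 688 and 253 (log2 fold change 3.95, SE 0.61, adjusted p = 4.65e-04). These 3 genes did not overlap between groups and were called in every fit without 1 library.

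Promoters were read for the called genes because the chaperone genes moved together. RefSeq (GRCm38.p6) start sites matched 15896 of the tested genes, 192 of the 242 higher and 54 of the 77 lower genes, and windows ran from 250 bases before to 50 bases after the start. The endoplasmic reticulum stress response element, searched on both strands as CCAAT and CCACG separated by any 9 bases, was present in 0.145% of the windows of tested genes (23 genes), in 2.6% of those of higher genes (5 genes) and in 0 of the 54 of lower genes. The 5 higher genes were Calr, Dnajc3, Hsp90b1, Hspa5 and Pdia6, all on the list of endoplasmic reticulum genes. Of the other 18 genes with the element, Canx (1.22, adjusted p = 0.106), Creld2 (2.12, 0.0815) and Syvn1 (2.63, 0.349) belong to the same list and were not called, although Canx was called with the block (0.00815). Derl3, which is not on that list, also held the element and was at -7.40 (SE 3.91, adjusted p = 0.391). The remaining genes with the element had log2 fold changes of both signs and were not called. The 250 bases before the start site of the 5 called genes are shown because they carry the element, which stands in capitals, and each reads 5′ to 3′ on the strand of the gene. They lie at chr8:84846932-84847181, minus strand for Calr, chr14:118937682-118937931, plus strand for Dnajc3, chr10:86705445-86705694, minus strand for Hsp90b1, chr2:34771840-34772089, plus strand for Hspa5 and chr12:17266339-17266588, plus strand for Pdia6.
Calr: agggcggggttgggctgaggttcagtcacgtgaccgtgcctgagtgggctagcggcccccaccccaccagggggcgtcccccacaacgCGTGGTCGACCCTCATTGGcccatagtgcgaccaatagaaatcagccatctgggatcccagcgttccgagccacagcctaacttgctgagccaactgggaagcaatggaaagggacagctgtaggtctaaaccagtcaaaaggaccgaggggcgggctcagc
Dnajc3: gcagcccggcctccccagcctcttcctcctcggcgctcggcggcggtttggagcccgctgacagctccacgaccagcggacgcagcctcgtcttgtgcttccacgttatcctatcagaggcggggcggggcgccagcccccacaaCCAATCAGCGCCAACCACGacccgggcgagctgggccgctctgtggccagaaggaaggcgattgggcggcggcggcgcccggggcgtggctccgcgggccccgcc
Hsp90b1: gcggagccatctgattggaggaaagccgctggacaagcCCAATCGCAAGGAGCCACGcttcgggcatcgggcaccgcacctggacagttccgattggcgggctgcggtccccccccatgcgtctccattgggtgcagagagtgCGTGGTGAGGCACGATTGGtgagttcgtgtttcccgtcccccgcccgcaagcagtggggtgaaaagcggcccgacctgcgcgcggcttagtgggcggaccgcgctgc
Hspa5: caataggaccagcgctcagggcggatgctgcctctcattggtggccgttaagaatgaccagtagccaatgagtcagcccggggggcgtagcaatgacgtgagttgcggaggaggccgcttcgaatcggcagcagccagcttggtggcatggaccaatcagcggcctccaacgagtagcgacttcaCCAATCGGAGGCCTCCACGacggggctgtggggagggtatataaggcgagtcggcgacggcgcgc
Pdia6: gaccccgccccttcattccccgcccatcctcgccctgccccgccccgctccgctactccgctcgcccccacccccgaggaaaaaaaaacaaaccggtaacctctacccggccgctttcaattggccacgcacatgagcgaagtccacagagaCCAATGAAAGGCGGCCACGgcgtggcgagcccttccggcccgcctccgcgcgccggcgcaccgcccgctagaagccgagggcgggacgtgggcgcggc

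Hsp90b1 held the element at 2 places and the other 4 genes at 1. Dnajc3, the weakest call among these genes (8665, 6346 and 2129 against 1764, 2082 and 1030.2; log2 fold change 2.05, SE 0.54, adjusted p = 0.048), lost it with the block (0.0783) and without any 1 of 5 libraries (all but Sox1-FoxA2+ replicate 3, 0.0789 to 0.34), and Pdia6 (log2 fold change 2.00, SE 0.41, adjusted p = 0.00474) lost it without Sox1-FoxA2+ replicate 1 (0.124). A GATA motif, AGATAA or TGATAA on either strand, was present in 14.6% of the windows of tested genes, 6.77% of higher and 7.41% of lower genes, and the forkhead motif TGTTTAC in 3.04, 2.6 and 3.7%. Such matches describe the letters of these windows.

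Of 21 neural progenitor genes, 17 could be tested, 4 were called lower, 16 had a negative log2 fold change, and the median was -2.64. Over all genes tested, 0.318% were called lower. Pax6, a paired-box factor of neural progenitors, had 143, 87.3 and 45.8 normalized counts in Sox1-FoxA2+ and 1042, 2905 and 1361 in Sox1+FoxA2- libraries (log2 fold change -4.05, SE 1.03, adjusted p = 0.0399). Msi1, an RNA-binding protein of neural progenitors, had 399, 166 and 358 against 2559, 3147 and 2049 (log2 fold change -2.92, SE 0.64, adjusted p = 0.00989). Cdh2, the neural cadherin, had 1403, 371 and 693 against 9900.3, 4537 and 3224 (log2 fold change -2.64, SE 0.63, adjusted p = 0.0452). Meis2, a homeodomain factor, had 2704, 3146 and 3131 against 9468, 7108 and 13557 (log2 fold change -1.57, SE 0.39, adjusted p = 0.0297). None of the 4 overlapped between groups. All 4 were called with the block, and each lost the call without some libraries. Msi1 lost it without replicate 2 of either group (0.065 and 0.0611). Pax6 lost it without Sox1+FoxA2- replicate 2 (0.218) or any Sox1-FoxA2+ replicate (0.0722, 0.182 and 0.152). For Cdh2 and Meis2 the call was lost in 5 of 6 fits (all but the one without Sox1-FoxA2+ replicate 1 for Cdh2, 0.0646 to 0.233, and without Sox1+FoxA2- replicate 2 for Meis2, 0.0693 to 0.173). Nes and Sox11 were separated and not called (-2.04, adjusted p = 0.371; -2.66, 0.173), but Nes was called with the block (0.0185).

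Of 16 neuronal differentiation genes, 12 were tested and 1 was called, Map2 (383, 701 and 218 against 3417, 1922 and 3203; log2 fold change -2.49, SE 0.60, adjusted p = 0.022), which lost the call without Sox1+FoxA2- replicate 1 or 3 or Sox1-FoxA2+ replicate 1 or 3 (0.0544 to 0.0877). The list median was -3.09, and it was -7.12 without Sox1-FoxA2+ replicate 3. Dcx, a microtubule protein of young neurons, was at 0 in every Sox1-FoxA2+ library and at 530.2, 159 and 1.85 in Sox1+FoxA2- libraries, at least 207-fold lower over the group, with an adjusted p of 0.0512 (0.0408 with the block). Here and below, such bounds set a group at 0 to 3 counts over its 3 libraries. The bounds, and the counting interval given below, take each count as a separate fragment. If fragments were counted more than once, the bounds are too large and the interval is too narrow. Stmn2 and Elavl4 were found in both groups. Stmn2 had 35.6, 2.18 and 882 against 1097, 982 and 2325, and Elavl4 376, 54.6 and 1491 against 1462, 1566 and 1508. Sox1-FoxA2+ replicate 3 was the highest of its group for both.

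An adhesion and a receptor gene stood among the lower genes of smallest p. Adam23, an adhesion protein of neural cells, had 132, 734 and 936 against 6421, 6395 and 6082 (log2 fold change -3.30, SE 0.55, adjusted p = 6.52e-04). Ddr2, a collagen receptor kinase, had 47.8, 83 and 8.59 against 768, 1105 and 1282 (log2 fold change -4.24, SE 0.73, adjusted p = 7.9e-04). In both genes all Sox1+FoxA2- libraries were higher, and the call held without any single library and with the block.

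**Figure D3:**
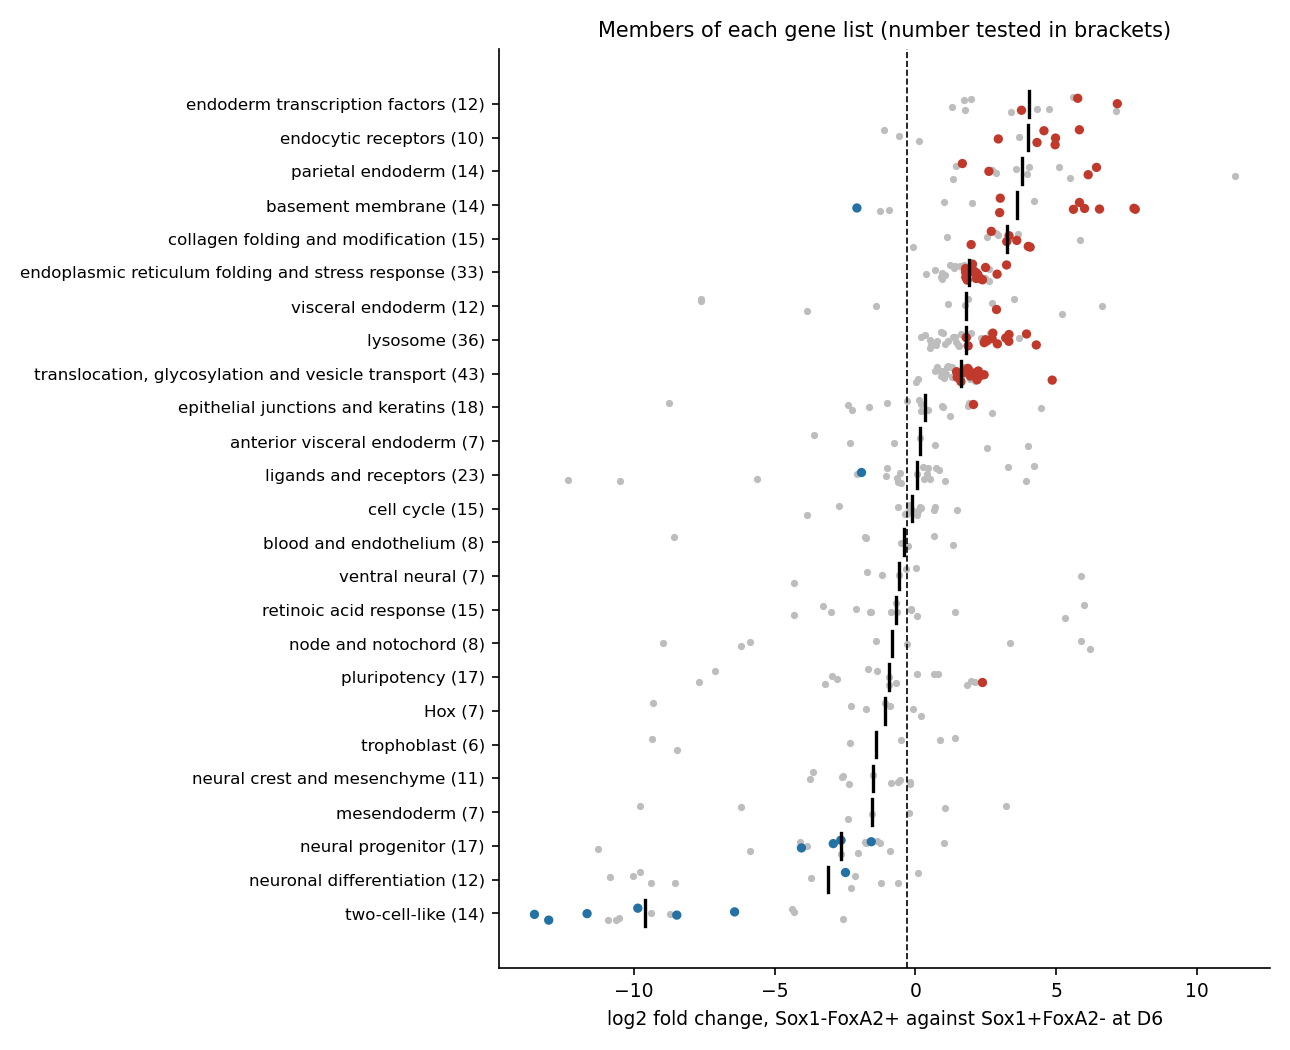
Log2 fold change at D6 of each tested member of the 22 gene lists and of the 3 lists composed after values were seen, ordered by list median (black ticks). Red points were called higher, blue points called lower and grey points not called, and the dashed line is the median of all genes at -0.30; the endoderm transcription factors lead at 4.05 and the 2-cell-like genes are last at -9.62.

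The called genes with the largest reductions included members of the Zscan4 and Usp17l families, which mark a transient state of ESC cultures that resembles the 2-cell embryo. All 14 tested members of 15 were negative, 13 did not overlap and 6 were called lower, with a median of -9.62, or -7.31 with genes at 0 in a group set to their bound. Over all genes tested, 23.2% did not overlap and 0.318% were called lower. Zscan4f was at 0 in every Sox1-FoxA2+ library and at 1159.8, 1922 and 1446 in Sox1+FoxA2- libraries, at least 1265-fold lower (adjusted p = 1.21e-05). Zscan4e was at 0 against 665, 1535 and 979, at least 869.6-fold lower (adjusted p = 1.42e-04). Zscan4c, with 2 counts in all Sox1-FoxA2+ libraries, had 0, 2.18 and 0 against 947, 1201 and 607, a ratio of 1150 with a 95% counting interval (counting error only) of 318 to 9505. Zscan4d had 50.9, 0 and 5.72 against 2041, 2075 and 1827 (log2 fold change -6.42, SE 1.11, adjusted p = 0.00141). Usp17le, a deubiquitinase gene, had 6.11, 0 and 0 against 1182, 559 and 1167 (log2 fold change -8.48, SE 1.43, adjusted p = 6.15e-04). Usp17la was at 0 against 346, 809 and 55.5, at least 309-fold lower (adjusted p = 0.0186; lost without Sox1+FoxA2- replicate 2, 0.0697, or Sox1-FoxA2+ replicate 1, 0.0591). Members of these families are near-identical copies, so that the split of reads between them is uncertain, and the 6 calls are not 6 independent observations.

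In the other populations, Zscan4f had 727, 516 and 165 normalized counts in Sox1+FoxA2+, 588, 839 and 522 in Sox1-FoxA2- and 74.7, 2119 and 1885 in undifferentiated D0 libraries. At D0 the genes varied widely between libraries, so that 1 D0 library had 74.7 for Zscan4f and 3.73 for Zscan4e while the others had 1885 or more for both. Markers of ESCs were measured beside them, with 1 of 17 pluripotency genes called, Klf5, which was higher in Sox1-FoxA2+ cells (9495, 8708 and 9223 against 1522, 999.8 and 3589.8; log2 fold change 2.37, SE 0.50, adjusted p = 0.00873; 0.0572 without Sox1+FoxA2- replicate 2). Nanog was at 55, 379.9 and 197 in Sox1-FoxA2+ and 990.4, 535 and 3451 in Sox1+FoxA2- libraries. Esrrb was at 169, 341 and 2275 against 2563, 1204 and 3391, and Pou5f1 at 208, 397 and 114 against 390.3, 590 and 642. None of these 3 passed (adjusted p = 0.138, 0.856 and 0.796). The summed normalized counts of the 17 pluripotency genes were 45098 to 46098 in Sox1-FoxA2+ and 28682 to 39481 in Sox1+FoxA2- libraries, and Dppa3 was at 0 in all Sox1-FoxA2+ libraries. Their median log2 fold change went the other way, at -0.95 with 10 of 17 negative (-0.29 without Sox1+FoxA2- replicate 3). At an unadjusted p of 0.05, 8 of the 17 passed, and DESeq2 called 6.

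**Figure D4:**
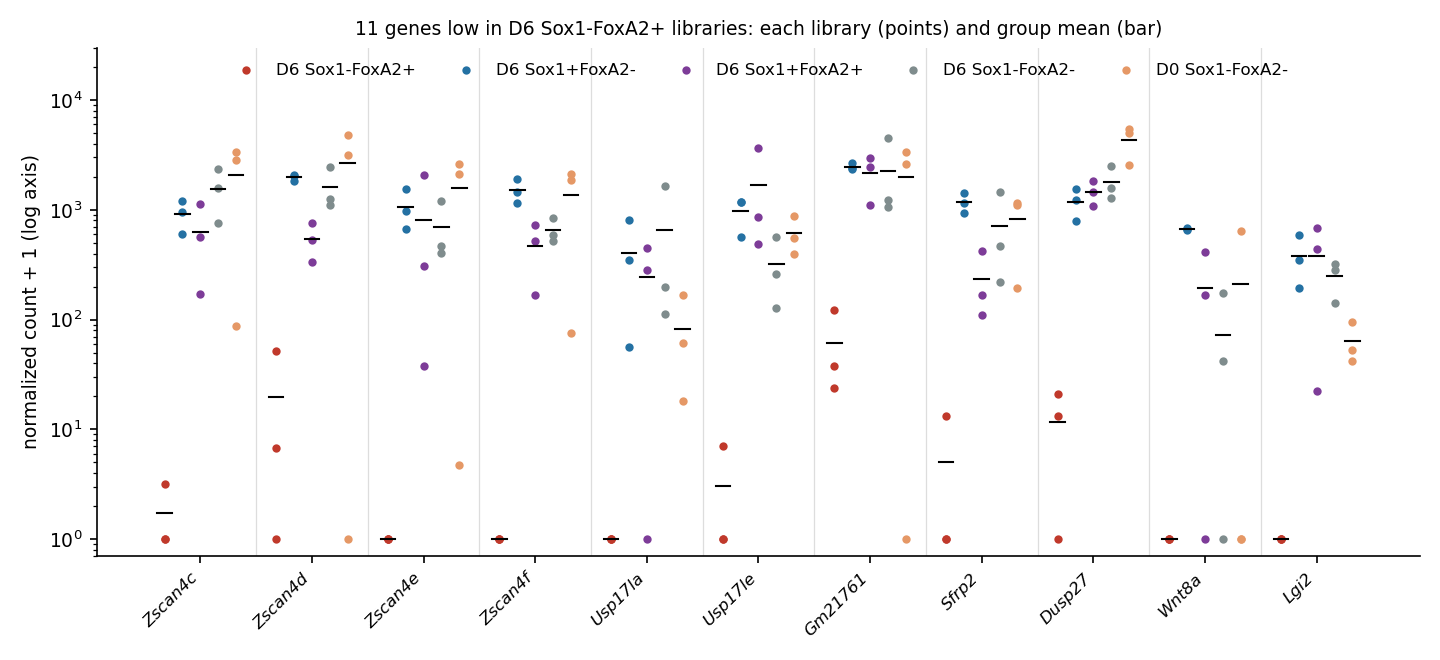
Normalized count plus 1 (log axis) of 11 genes that were low in Sox1-FoxA2+ cells, in each library of the 4 populations sorted at D6 and of undifferentiated D0 cells. Points are libraries and bars group means of 3; the red Sox1-FoxA2+ points lie at 1 (a count of 0) or low on the axis for each gene, and Zscan4f had means of 1509, 469 and 650 in Sox1+FoxA2- cells, in cells with both markers and in cells with neither.

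Secreted and signalling genes were also found at the lower end. Sfrp2, a secreted Wnt modulator, had 12.2, 0 and 0 against 1162, 1412 and 932 (log2 fold change -7.81, SE 1.58, adjusted p = 0.00427) and was called without any single library. Lgi2 and Tnfsf11, which encodes the cytokine RANKL, were at 0 in every Sox1-FoxA2+ library, at least 305-fold and at least 335-fold lower (adjusted p = 0.022 for both). Both lost the call in 4 of 6 fits without 1 library (0.0544 to 0.104), in both cases without Sox1+FoxA2- replicate 1 and Sox1-FoxA2+ replicate 1 or 2, and further without Sox1+FoxA2- replicate 2 for Lgi2 and replicate 3 for Tnfsf11. Wnt8a, a Wnt ligand, was at 0 in every Sox1-FoxA2+ library and at 648, 679 and 672 in Sox1+FoxA2- libraries, and it did not pass (adjusted p = 0.0511; 0.0292 with the block). Fgfbp1, a carrier of fibroblast growth factors, had 0, 17.5 and 0 against 978, 1341 and 266 (log2 fold change -6.96, SE 1.82, adjusted p = 0.0443; lost without Sox1+FoxA2- replicate 1 or 2 or Sox1-FoxA2+ replicate 1 or 3, 0.0643 to 0.245). Adamts14, a procollagen protease, and Mfap2, a microfibril protein, were lower with adjusted p of 0.0399 and 0.0493, and both lost the call with the block (0.0518 and 0.0593), Adamts14 also without replicate 1 or 3 of either group (0.0578 to 0.214) and Mfap2 in 5 of 6 fits (all but Sox1+FoxA2- replicate 2, 0.0616 to 0.174). At the other end, the gene with the largest log2 fold change among called genes, Pdzd3, a PDZ scaffold protein, had 377, 731 and 736 in Sox1-FoxA2+ and 0 in every Sox1+FoxA2- library, at least 581-fold higher (adjusted p = 0.041), and lost the call in 5 of 6 fits (all but Sox1-FoxA2+ replicate 3, 0.0628 to 0.184).

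Receptors and ligands had log2 fold changes in both directions, with 1 call in 23 tested and a median of 0.04, which was -0.10 with DESeq2 size factors and -0.53 with the block. Fgfr1 was the called gene, with 579, 616 and 1231 in Sox1-FoxA2+ and 3187, 3354 and 3487 in Sox1+FoxA2- libraries (log2 fold change -1.93, SE 0.45, adjusted p = 0.0167), lost in 5 of 6 fits without 1 library (all but Sox1-FoxA2+ replicate 3, 0.0544 to 0.133). The other FGF receptors did not pass: Fgfr2 was at 0.46, Fgfr3 at 4.23 and Fgfr4 at 3.94 (adjusted p = 0.661, 0.371 and 0.39), and Fgfr3 and Fgfr4 did not overlap between groups. Of 15 genes that respond to or metabolise RA, 0 were called by edgeR (5 at an unadjusted p of 0.05, 4 by DESeq2), and the median was -0.68. Cyp26a1, the RA-degrading enzyme induced by RA, had 15380.4, 7793 and 4096 against 93.9, 403 and 0 (log2 fold change 5.98, SE 1.95, adjusted p = 0.304). Crabp1, an RA-binding protein, had 59, 949.6 and 561 against 11726, 19554 and 2752 (log2 fold change -4.33, SE 1.52, adjusted p = 0.341). The groups did not overlap for either gene, and the spread within groups was wide. Of 15 Hox genes, 7 were tested and 0 called by edgeR (1 at an unadjusted p of 0.05, 0 by DESeq2). Among epithelial genes, 1 of 18 was called, Jup, which encodes plakoglobin (3341, 4521 and 3280.1 against 1217, 581 and 1302; log2 fold change 2.04, SE 0.52, adjusted p = 0.0341; lost in 5 of 6 fits, all but Sox1-FoxA2+ replicate 3, 0.0722 to 0.238). The median was 0.34, with Cdh1, the epithelial cadherin, at 1688, 3039.9 and 754 against 2073, 972 and 2652.

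Markers of other cell types that the gates could hold gave 0 calls by edgeR's test. At an unadjusted p of 0.05, 3 trophoblast genes and 1 gene each of mesendoderm, node and notochord, and blood and endothelium passed, and 0 of the ventral neural and of the neural crest and mesenchyme genes. DESeq2 called 2 trophoblast genes, 1 mesendoderm gene and 0 of the others. The medians were -1.55 for mesendoderm (7 tested), -0.84 for node and notochord (8), -0.59 for ventral neural cells (7), -1.49 for neural crest and mesenchyme (11), -0.40 for blood and endothelium (8) and -1.41 for trophoblast (6). These medians rest on few genes and on single libraries. The mesendoderm median was -0.31 without Sox1+FoxA2- replicate 1 and -4.47 when Sox1-FoxA2+ replicate 3 was left out. The node median was -0.15 without Sox1+FoxA2- replicate 1, -2.12 without Sox1-FoxA2+ replicate 2 and 1.48 in a fit of only the libraries compared. The ventral neural median was 0.01 without Sox1+FoxA2- replicate 1 and -2.31 when Sox1-FoxA2+ replicate 1 was left out. The neural crest median was -2.63 without Sox1-FoxA2+ replicate 1 and -2.75 with the block. For blood and endothelium it was -0.088 without Sox1+FoxA2- replicate 3 and -1.89 when Sox1-FoxA2+ replicate 3 was left out (-1.43 with the block), and for trophoblast -0.65 without Sox1+FoxA2- replicate 1 and -4.48 when Sox1-FoxA2+ replicate 1 was left out. The 8 trophoblast genes summed to 4597 to 6729 normalized counts in Sox1-FoxA2+ and 2677 to 3484 in Sox1+FoxA2- libraries, so that their sum lay higher in Sox1-FoxA2+ cells while their median was negative. Brachyury (T), Noto and Foxj1 were at 0 in all Sox1-FoxA2+ libraries, and Shh, a ligand of node and floor plate, was at 26.5, 6.55 and 781 in Sox1-FoxA2+ and 12.9, 0 and 0 in Sox1+FoxA2- libraries. Replicate 3 of Sox1-FoxA2+ was the highest of its group for Shh, Tbx6, Mixl1 and Dnah5. Cell cycle genes had a median of -0.13 with 0 of 15 called by edgeR, 2 at an unadjusted p of 0.05 and 1 called by DESeq2 (median 0.08 when Sox1+FoxA2- replicate 2 was left out, 0.12 when Sox1-FoxA2+ replicate 3 was), and Mki67 was at 29853, 38058 and 23244 against 22892, 17591 and 24755.

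The same contrast was available in separate libraries at D4 and in D6 progeny. At D4, 61 of 22946 genes were called (0.266%; 0.205% higher and 0.061% lower), and in D6 progeny 1456 of 21069 (6.91%; 3.59% higher and 3.32% lower). All 319 genes called at D6 were tested in both. At D4, 315 of the 319 had the same sign and 50 were called the same way, which is 15.7% of the D6 calls and 82% of the D4 calls. In D6 progeny, 299 had the same sign and 190 were called the same way, which is 59.6% of the D6 calls and 13% of the progeny calls. The higher genes had medians of 2.40 at D6, 1.79 at D4 and 1.41 in D6 progeny, and the lower genes of -2.82, -0.98 and -1.46. The genes were chosen by their D6 values, which favours larger fold changes there, so that these medians cannot show a change between days. The share of equal signs over all genes tested was not computed. Called the same way in all 3 comparisons were 47 genes, 44 of them higher. Lama1 was at 7.82, 6.97 and 5.06 at D6, D4 and in D6 progeny, Gata6 at 5.77, 5.87 and 2.65, Epas1 at 6.15, 4.48 and 4.42, and Dab2 at 4.97, 4.48 and 2.73. The 3 lower genes among the 47 were Pax6, Ptn, a heparin-binding growth factor, and Cntfr, a cytokine receptor of neural cells; Ptn and Cntfr are named here after their values were seen. Zscan4f was not called in the other comparisons, at -3.58 at D4 (adjusted p = 0.881) and at -4.36 in D6 progeny (0.368). Vim was the gene called in opposite directions, higher in Sox1-FoxA2+ cells at D6 and lower in their progeny (1.67 and -1.68; adjusted p = 0.0209 and 0.00147), and at D4 it was at -0.11. Progeny were sorted at D2 only, and the study describes no second sort before their libraries were made at D6. Replating, the serum base of the progeny medium and the day of sorting cannot be told apart as sources of such a difference. The difference between the arms was not tested here.

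**Figure D5:**
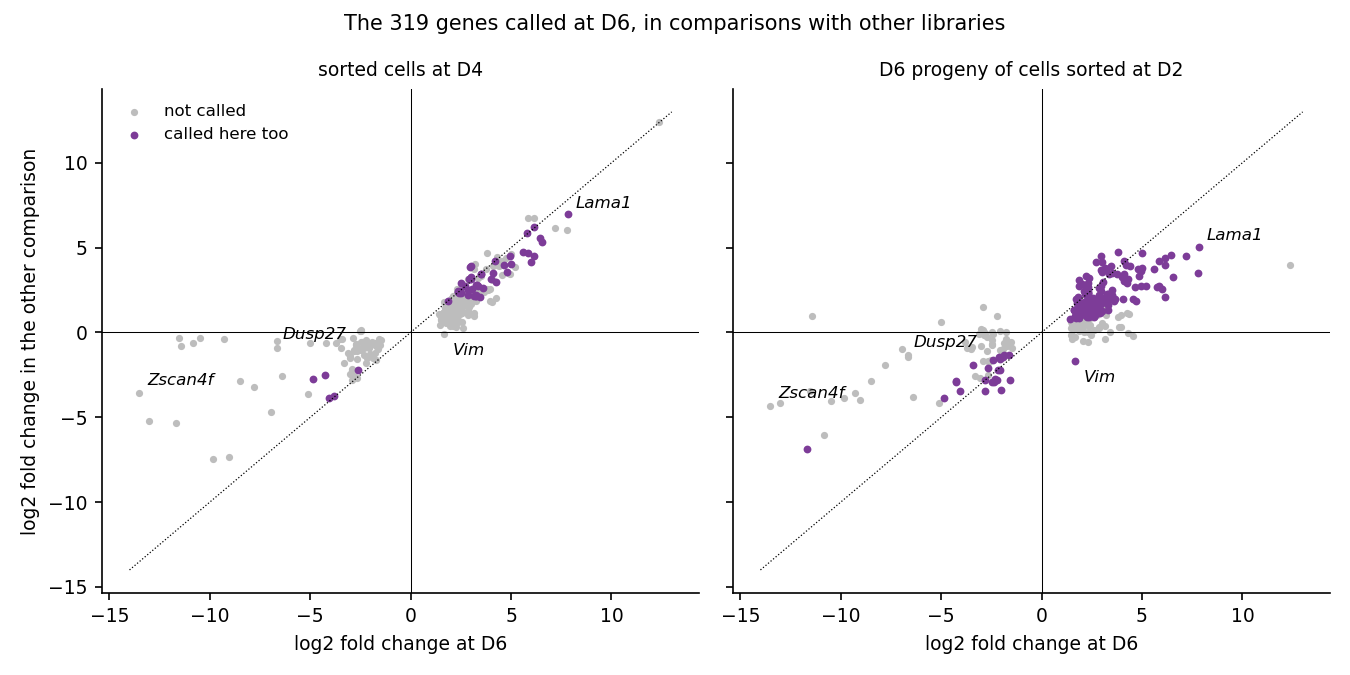
Log2 fold change of the 319 genes called at D6 (x axis) against their log2 fold change at D4 (left) and in D6 progeny of cells sorted at D2 (right), on the y axis. Purple points were also called in the other comparison and grey points were not, the dotted line marks equal values, and most points lie in the quadrants of equal sign (315 and 299 of 319).

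Whether the difference itself changed between D4 and D6 was tested in a single fit of the 24 libraries sorted on those days. Of 27111 genes, 1 was called (0.00369%), Dusp27, which encodes an inactive dual-specificity phosphatase, while 1664 passed an unadjusted p of 0.05. At D6, Dusp27 had 12.2, 0 and 20 normalized counts in Sox1-FoxA2+ and 1224, 793 and 1551 in Sox1+FoxA2- libraries. At D4 the values were 129.7, 1068 and 487 in Sox1-FoxA2+ and 1062, 1290.2 and 925 in Sox1+FoxA2- libraries. The D6 libraries did not overlap (log2 fold change -6.68, SE 0.95, adjusted p = 6.22e-05), and at D4 they did (log2 fold change -0.90, adjusted p = 0.95). The change was -5.84 (SE 1.00, adjusted p = 0.015), and it lost the call without Sox1+FoxA2- replicate 1 or 3 of D4 (0.0658 and 0.0918) or Sox1-FoxA2+ replicate 2 of D4 (0.225) and in a fit of only the 12 libraries compared (0.685). Dusp27 had 4968, 2567 and 5502 in undifferentiated cells and 1462, 1086 and 1831 in Sox1+FoxA2+ cells of D6.

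Sox1+FoxA2+ cells of D6, which carry both markers, had a mean between the single-positive means for 233 of the 242 higher and 53 of the 77 lower genes, and Sox1-FoxA2- cells for 177 and 59. Gata6 had 2345, 1796 and 6179 in Sox1+FoxA2+ and 519, 619 and 248 in Sox1-FoxA2- libraries. Epas1 had 7899.5, 21678 and 20668 against 1669, 1182 and 1608, and Lama1 23941, 49196 and 207439 against 1416, 1522 and 1462. The genes were chosen for a difference between the single-positive groups, so that a mean of another group falls between them more readily. The share over all genes tested was not computed. These positions are a description without a test.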

How the data were processed

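For the libraries of sorted cells, the authors sorted equal numbers of cells per population. Progeny libraries were made from harvested cells that were counted by hand. The authors prepared libraries with a stranded SMART-Seq kit, aligned reads with STAR and handled alignments with SAMtools. They deposited raw counts per gene, made with featureCounts on GENCODE M21 (GRCm38). Tool versions are not given in the sources used here. The table holds 55450 genes, and 92 rows that name no gene (0 counts) were left out. Groups and replicate numbers follow the labels, and no pair of libraries was identical. Genes partly inside other genes are undercounted, and members of near-identical families may share reads.

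Counts were tested with edgeR 4.0.16 (R 4.3.3; TMM, filterByExpr with a minimum count of 10 and total of 15, robust quasi-likelihood F-test, Benjamini-Hochberg adjusted p under 0.05), and DESeq2 1.42.0 gave normalized counts and the Wald alternative. Each fit held all populations of its day and arm (12 libraries at D6 and at D4, 9 in D6 progeny, 24 for the change from D4 to D6). The fit was also run on simulated counts, with no replicate effect and with changes set only in genes above the median level. These settings differ from the real data, and the run is not used as support. Replicate numbers paired the D6 libraries (correlations of deviations from group means 0.175, 0.245 and 0.154) and those of D4 (0.231, 0.475 and 0.492). The highest correlation between different replicate numbers was -0.00422 at D6 and -0.0547 at D4. The pairing itself was not tested. The text names the 15 called genes with the largest and the 15 with the smallest log2 fold changes without overlap, the 10 of smallest p in each direction, list genes, Foxa2 and Sox1, or a selection of these; a few of these genes are not reported here. The members and lists were chosen with earlier results of these data known. Alternatives were DESeq2's test and size factors, no filter, no robust estimate, halved counts, only the libraries compared, the replicate block and each library left out; the halved counts and the non-robust fit were chosen after seeing the data.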

Additional observations from a re-analysis of the deposited data

Results flagged for a closer look

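The difference between Sox1-FoxA2+ and Sox1+FoxA2- cells changed between D4 and D6 for Dusp27 by an interaction term in the edgeR fit. The log2 difference was lower at D6 than at D4, with a change of -5.84 (SE 1.00, adjusted p = 0.015), and the call was lost without any of 3 D4 libraries and in a fit of only the 12 libraries compared, as given above.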

How the results depend on the processing

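All 319 genes called at D6 kept their sign under every alternative in which they were tested. With DESeq2's Wald test 1641 genes were called at D6, without a filter on low counts 605 and with the replicate block 517. At D4 the count was 534 with the Wald test, 251 without a filter, 144 with the block and 105 from only the libraries compared, and in D6 progeny 2290 with the Wald test. For the change from D4 to D6, the Wald test called 1202 genes, no filter 17 and only the libraries compared 0. The cause was not tested. The share of D6 calls that were higher was 75.9% as reported, 73.1% with DESeq2 size factors, 29.6% with the Wald test, 54.9% without a filter and 66.3% with the block. Without 1 library, calls ranged from 179 to 501 at D6, 28 to 65 at D4, 859 to 1705 in D6 progeny and 0 to 2 for the change. The parietal endoderm median was 3.61 with the Wald test, with size factors and without a filter, 3.43 from only the libraries compared and 3.57 with the block, the neuronal median -5.77 without a filter, and the 2-cell-like median -8.97 with halved counts. Members called over all lists numbered 88 with the Wald test. Without 1 library, medians ranged from 3.75 to 5.18 for endoderm transcription factors, 3.05 to 4.00 for parietal endoderm, -7.12 to -3.13 for neuronal genes, -1.19 to -0.20 for RA response, -10.57 to -9.18 for 2-cell-like genes, -1.89 to -0.088 for blood and endothelium and -4.48 to -0.65 for trophoblast, and members called from 25 to 44. Replicate numbers of D6 progeny did not clearly pair the libraries (correlations 0.0595, 0.135 and 0.403). The highest correlation between different replicate numbers was 0.216 there, and the block called 1598 genes.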
